A study of Homo sapiens with 6 samples.

Results

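The mechanistic target of rapamycin (mTOR) pathway genes and LARP1 were examined in T98G cells after depletion of the kinase DYRK1A. The group consists of 10 genes out of the 23026 in the deposited normalized table, chosen by symbol alone: MTOR, RPTOR, RICTOR, RHEB, TSC1, TSC2, RPS6KB1, LARP1, EIF4EBP1 and EIF4EBP2. All 10 were found under these symbols, and all 10 passed the filter on low values, a mean above 10 normalized CPM (spike-in normalized counts per 1000000 of the mean raw library total), which 9697 genes passed.

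mTOR is a serine/threonine kinase that couples growth factor and amino acid supply to protein synthesis, and it works in a complex with RPTOR (mTORC1) or with RICTOR (mTORC2). The small GTPase RHEB switches mTORC1 on at the lysosome, and the complex of TSC1 and TSC2 switches RHEB off. Active mTORC1 phosphorylates the S6 kinase made from RPS6KB1, and it phosphorylates the cap-binding repressors made from EIF4EBP1 and EIF4EBP2, which then release EIF4E. LARP1 binds the cap and the terminal oligopyrimidine (TOP) tract of messenger RNAs for ribosomal proteins and translation factors and holds them out of translation when mTORC1 is inactive. Most of this control acts on proteins by phosphorylation, which was not measured here. The data are messenger RNA levels only.

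T98G is an established human glioblastoma line. The cells were transduced with a lentivirus for a control short hairpin RNA (shControl, 3 libraries) or for a hairpin against DYRK1A (shDYRK1A, 3 libraries), selected with puromycin and left to recover without it, so both groups had been infected and selected. Fly cells of the Kc167 line had been added in fixed number to equal numbers of T98G cells, and the authors scaled each library on the fly reads. Libraries carry the names 1A, 1B and 1C in each group, and values are given in that order, shControl before shDYRK1A. The labels do not say whether these were separate infections, so the p-values measure the spread between these libraries, which may be technical, and the single shDYRK1A hairpin limits the group as a model of DYRK1A loss.

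Gene counts came to between 33708297 and 42154438 per library. The lowest total and the highest share of unmapped reads (15.65%, against 8.44% in the lowest library) were those of shDYRK1A 1B, which a principal component holding 8.1% of the variance set apart from the other shDYRK1A libraries. The hairpin's target, DYRK1A, had spike-in normalized counts of 2227, 2234 and 1895 against 1482, 1056 and 1285, a log2 fold change of -0.73 (SE 0.15, edgeR adjusted p = 5.33e-06). DYRK1A thus stood at 60.2% of its shControl level, and 11.8% of all tested genes had a lower log2 fold change. Relative to the median of all tested genes its log2 fold change was -0.33. Of the glioma markers, VIM (1799 normalized CPM over all libraries), CD44 (1519) and SOX9 (41.6) were present, whereas the glial genes GFAP (0.039 normalized CPM) and S100B (0 counts in all libraries) were not, and OLIG2 (1.52) and NES (1.82) were low. Markers of leukocytes, epithelium, neurons and endothelium (PTPRC, EPCAM, RBFOX3 and PECAM1) stood at 0.005 to 1.09 normalized CPM.

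The scale matters for every value that follows. On the spike-in scale, 93.6% of the 9697 tested genes had a negative log2 fold change, and the median gene stood at 75.7% of its shControl level (log2 fold change -0.40). When libraries were scaled on the human genes themselves, by the trimmed mean of M values (TMM), the median gene was at 0.00. Equal numbers of T98G cells had been mixed with the fly cells, so the spike-in scale was set up to read RNA per cell. How exact the cell counts and the mixing were was not tested. Log2 fold changes of single genes are therefore on the spike-in scale unless another is named, and each is to be read against the median gene at -0.40.

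The level of the 10 genes in control cells was compared first, as spike-in normalized counts per kilobase of annotated exon. This length is the union of all annotated exons, so a gene with long minor isoforms is placed too low. EIF4EBP1 was the highest, at 4318 ± 316 (SD, n = 3) normalized counts per kilobase. LARP1 followed at 2298 ± 190 and RHEB at 2009 ± 274, and the libraries of these 2 genes overlapped. A lower tier began with EIF4EBP2 at 624 ± 55.1, RPTOR at 424 ± 30.6 and MTOR at 378 ± 34.7 normalized counts per kilobase, RPTOR and MTOR again overlapping. RPS6KB1 stood at 266 ± 27.4 and TSC2 at 162 ± 13.2, and RICTOR (119 ± 9.20) and TSC1 (111 ± 10.3) overlapped at the bottom of the order. In shDYRK1A the order of the means was the same, from 3061 ± 158 for EIF4EBP1 to 87.1 ± 13.5 for TSC1, with EIF4EBP2 (415 ± 66.6) and RPTOR (369 ± 34.5) now also overlapping. LARP1 was in this sense the more abundant message of the pair it forms with MTOR, in every library.

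All 10 genes had a negative log2 fold change on the spike-in scale. With an adjusted p below 0.05 as the only criterion, 7 of the 10 fell and none rose. Over all tested genes 63.4% fell by this criterion and 1.08% rose, so the share among the 10 is near that of all genes. With the authors' further demand of a log2 change beyond 0.7 in size, none of the 10 was called by edgeR or by DESeq2, while 14.3% of all tested genes were called lower and 0.278% higher. At an unadjusted edgeR p below 0.05, 8 of the 10 were lower, beside 67.4% of all. The median of the 10 was -0.51, which is 0.11 below the median of all genes, and 6 of the 10 were below it. Levels ranged from LARP1, at 63.1% of its control level, to MTOR and RPTOR, at 87.3% and 87.1%.

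**Figure D1:**
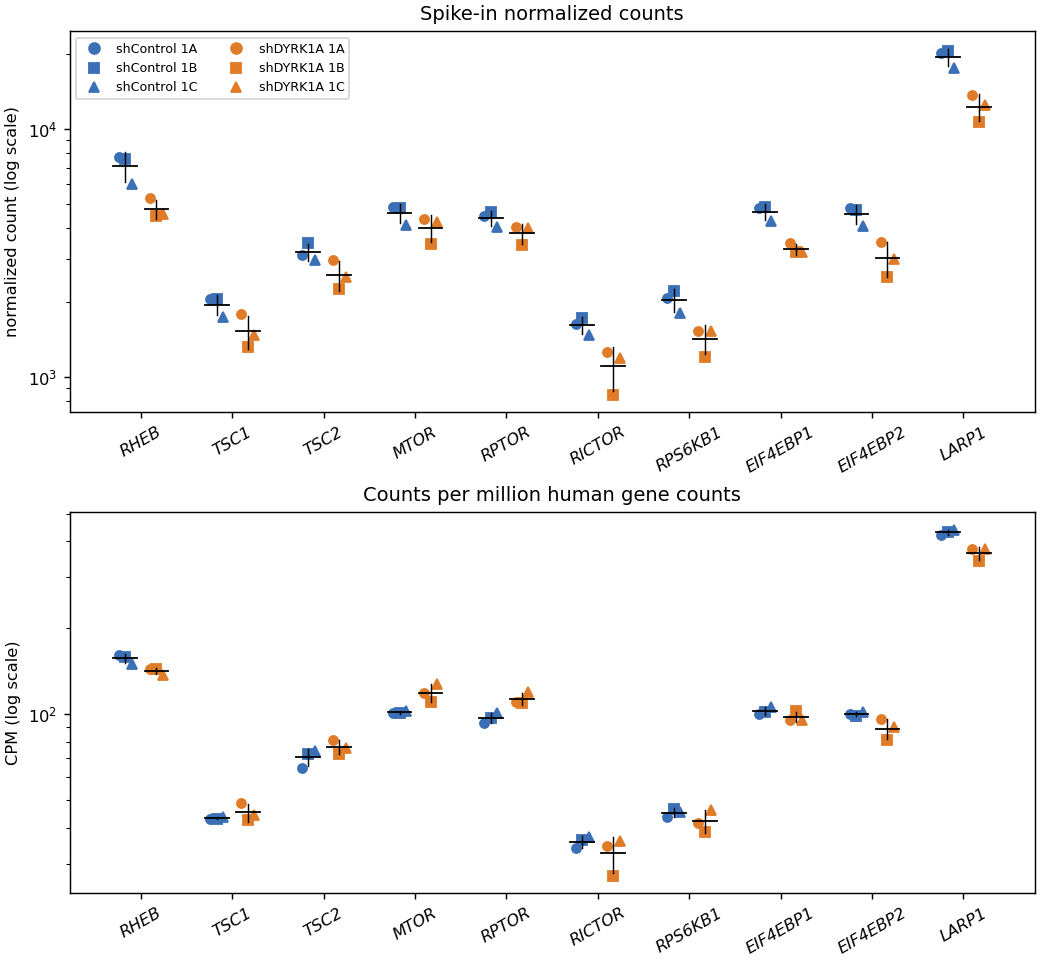
Level of each of the 10 genes in each library, as spike-in normalized counts (upper panel) and as CPM of the human gene counts (lower panel), both on log axes. Points are libraries, horizontal lines the mean and vertical lines the SD of 3 libraries. LARP1 is lower in every shDYRK1A library in both panels, whereas MTOR and RPTOR overlap between groups in the upper panel and are higher in every shDYRK1A library in the lower one.

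LARP1 (ENSG00000155506; hg38 chromosome 5, 154712902 to 154817607, plus strand, protein coding) had the lowest log2 fold change of the 10. Its spike-in normalized count was 20295, 20600 and 17659 in shControl, and 13767, 10679 and 12522 in shDYRK1A. The groups were far apart relative to their spread, with the highest shDYRK1A library well under the lowest shControl library. The means were 19518 ± 1617 and 12323 ± 1554 (SD, n = 3), a log2 fold change of -0.66 (SE 0.13, edgeR adjusted p = 3.8e-06), and 17.1% of all tested genes had a lower value. LARP1 fell in all 6 fits that left out a library (-0.75 to -0.57), and it passed the 0.7 threshold without shControl 1C (-0.73) or without shDYRK1A 1A (-0.75). It fell on the TMM scale too (-0.26, adjusted p = 0.000372). None of its exonic sequence overlapped another annotated gene or matched one over 50 bases, so its reads are not shared in that sense.

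The genes that switch mTORC1 on and off were next. RHEB (ENSG00000106615; chromosome 7, 151466012 to 151520120, minus strand), the activating GTPase, had normalized counts of 7741, 7575 and 5986 in shControl and 5258, 4474 and 4557 in shDYRK1A, so that the groups did not overlap. It fell by 0.58 on the log2 scale (SE 0.14, edgeR adjusted p = 0.000102), in all 6 fits without a library and on the TMM scale (-0.17, adjusted p = 0.0101). Of the distinct 50-base words in its annotated transcripts, 9.29% occur also in transcripts of other genes, among them the pseudogenes RHEBP1 and RHEBP2. How such reads were counted is uncertain.

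TSC1 (ENSG00000165699; chromosome 9, 132891348 to 132944633, minus strand), the scaffold of the inhibitory complex, had 2063, 2056 and 1747 normalized counts in shControl and 1792, 1327 and 1478 in shDYRK1A. The groups overlapped, since shDYRK1A 1A was above shControl 1C. Its log2 fold change of -0.35 (SE 0.15) passed the test at an edgeR adjusted p of 0.0273, but this call was lost in 4 of the 6 fits without a library: without shControl 1A (adjusted p = 0.143), shControl 1B (0.125), shDYRK1A 1B (0.142) or shDYRK1A 1C (0.144), and also with no filter on low values (0.0560). Under TMM the value was 0.05 (adjusted p = 0.494).

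TSC2 (ENSG00000103197; chromosome 16, 2047465 to 2088720, plus strand), the GTPase-activating partner of TSC1, had 3121, 3472 and 2965 normalized counts in shControl and 2964, 2262 and 2536 in shDYRK1A. These groups did not overlap, but shControl 1C and shDYRK1A 1A were less than 1 normalized count apart. The log2 fold change was -0.30 (SE 0.14) with an edgeR adjusted p of 0.0516, past the threshold with DESeq2 (0.0296), without shControl 1C (-0.35, 0.0110) and without shDYRK1A 1A (-0.41, 0.0175). Under TMM it was 0.10 (adjusted p = 0.173). Of TSC2's exons, 6.01% lie opposite exons of NTHL1 and PKD1, and whether counting used the strand is not given in the sources used here.

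Of the 3 genes that build the mTOR complexes, only RICTOR passed the test on the spike-in scale. MTOR (ENSG00000198793; chromosome 1, 11106535 to 11262507, minus strand), the kinase, had 4846, 4807 and 4100 normalized counts in shControl and 4348, 3433 and 4229 in shDYRK1A. Groups overlapped, with 2 shDYRK1A libraries above the lowest shControl library. Its log2 fold change was -0.20 (SE 0.14, edgeR adjusted p = 0.196), with an adjusted p under 0.05 in 1 of 6 fits without a library (without shControl 1C, -0.27, adjusted p = 0.0418).

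As a share of the human gene counts of each library, scaled to a total of 1000000 (CPM), MTOR was higher after DYRK1A depletion. It had 101, 100.5 and 102 CPM in shControl and 119, 110 and 127 CPM in shDYRK1A, and every shDYRK1A library was above every shControl library. With TMM the log2 fold change was 0.21 (SE 0.05, adjusted p = 0.00365). Its direction thus depends on the scale. Relative to the median gene MTOR was 0.21 higher on the spike-in scale. This nearly equals the TMM value because a change of scale shifts all genes alike, so it is not a separate result.

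RPTOR (ENSG00000141564; chromosome 17, 80544819 to 80966371, plus strand), which brings substrates to mTORC1, resembled MTOR in its values. It had 4451, 4638 and 4022 normalized counts in shControl and 4044, 3397 and 3977 in shDYRK1A, and shDYRK1A 1A lay above shControl 1C. The log2 fold change was -0.20 (SE 0.14, edgeR adjusted p = 0.189), and no fit without a library had an adjusted p below 0.05. RPTOR rose by 0.20 on the TMM scale (adjusted p = 0.00418), with CPM groups that did not overlap.

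RICTOR (ENSG00000164327; chromosome 5, 38937919 to 39074408, minus strand), which defines mTORC2, had 1631, 1733 and 1485 normalized counts in shControl and 1268, 850.5 and 1194 in shDYRK1A. The groups did not overlap, and shDYRK1A 1B was the lowest of all. RICTOR fell by 0.55 on the log2 scale (SE 0.15, edgeR adjusted p = 0.000836) and in all 6 fits without a library, from -0.66 to -0.39, the latter without shDYRK1A 1B. Under TMM the value was -0.15 (adjusted p = 0.129), with overlapping CPM groups.

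The 3 genes for direct mTORC1 substrates fell to a like extent on the spike-in scale. RPS6KB1 (ENSG00000108443; chromosome 17, 59893046 to 59950564, plus strand), the S6 kinase, had 2093, 2231 and 1818 normalized counts in shControl and 1527, 1204 and 1541 in shDYRK1A, a log2 fold change of -0.52 (SE 0.15, edgeR adjusted p = 0.00108). EIF4EBP1 (ENSG00000187840; chromosome 8, 38030341 to 38060365, plus strand) had 4788, 4868 and 4245 against 3480, 3191 and 3182, a log2 fold change of -0.50 (SE 0.14, adjusted p = 0.00106). EIF4EBP2 (ENSG00000148730; chromosome 10, 70404379 to 70428618, plus strand) had 4817, 4702 and 4075 against 3502, 2536 and 2987, a log2 fold change of -0.59 (SE 0.14, adjusted p = 0.000105). In all 3 the groups did not overlap, and all 3 fell in each of the 6 fits without a library. EIF4EBP2 passed the 0.7 threshold without shDYRK1A 1A (-0.71). EIF4EBP2 fell on the TMM scale too (-0.19, adjusted p = 0.00747), whereas RPS6KB1 (-0.12, adjusted p = 0.123) and EIF4EBP1 (-0.09, adjusted p = 0.153) did not pass the test. Of the distinct 50-base words in RPS6KB1's transcripts, 7.56% occur also in transcripts of other genes. Of its exon bases, 1.94% lie within exons of AC005702.1 on the same strand.

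On the TMM scale, then, LARP1, RHEB and EIF4EBP2 fell and MTOR and RPTOR rose, 3 and 2 of 10, beside 28.6% and 27.3% of all tested genes. CPM groups did not overlap for the same 5 genes in the same directions, where over all genes 29.3% were lower and 33.5% higher without overlap. On the spike-in scale 7 of 10 genes were lower without overlap, beside 63.6% of all genes, and none was higher without overlap (1.59% of all).

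**Figure D2:**
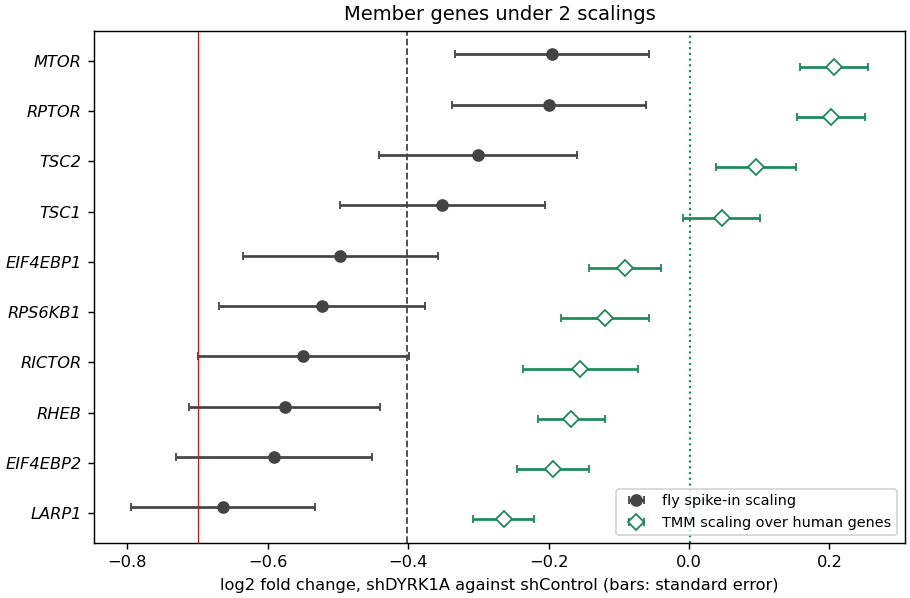
Log2 fold change of each of the 10 genes, shDYRK1A against shControl, on the fly spike-in scale (filled circles) and on the TMM scale over human genes (open diamonds), with bars for the standard error. The dashed and dotted lines mark the median of all 9697 tested genes on each scale (-0.40 and 0.00) and the red line the threshold of -0.7. A change of scale shifts all genes by nearly the same amount, so the order of the genes is alike on both scales. On the TMM scale MTOR and RPTOR lie to the right of 0 and LARP1 farthest to the left.

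A ratio of 2 genes within a library does not depend on any scaling, and 5 such ratios of raw counts were compared. The ratio of LARP1 to MTOR was 4.19, 4.29 and 4.31 in shControl and 3.17, 3.11 and 2.96 in shDYRK1A. The libraries within each group were close together and the groups did not overlap. The difference in log2 ratio was -0.47 (SE 0.03), and it stayed between -0.49 and -0.44 when any library was left out. The two-sided exact permutation p was 0.1, the smallest that 3 libraries against 3 can give (0.167 adjusted over the 5 ratios), so this design cannot reach 0.05 for such a ratio.

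The ratio of RPS6KB1 to MTOR behaved alike, with 0.432, 0.464 and 0.443 in shControl and 0.351, 0.351 and 0.364 in shDYRK1A, a log2 difference of -0.33 (SE 0.04, exact permutation p = 0.1, adjusted 0.167). The ratio of RPTOR to RICTOR, the subunits that tell mTORC1 from mTORC2, went from 2.73, 2.68 and 2.71 to 3.19, 3.99 and 3.33. The groups did not overlap, but the shDYRK1A libraries spread widely. The log2 difference was 0.37 (SE 0.10, exact permutation p = 0.1, adjusted 0.167), and 0.27 without shDYRK1A 1B.

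The remaining pairs overlapped between groups. EIF4EBP1 to EIF4EBP2 was 0.994, 1.04 and 1.04 in shControl and 0.994, 1.26 and 1.07 in shDYRK1A, a log2 difference of 0.10 (SE 0.10, exact permutation p = 0.5). TSC1 to TSC2 was 0.661, 0.592 and 0.589 against 0.605, 0.587 and 0.583, a log2 difference of -0.05 (SE 0.06, exact permutation p = 0.5). Leaving out a library moved these differences between 0.01 and 0.18 and between -0.08 and 0.00.

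**Figure D3:**
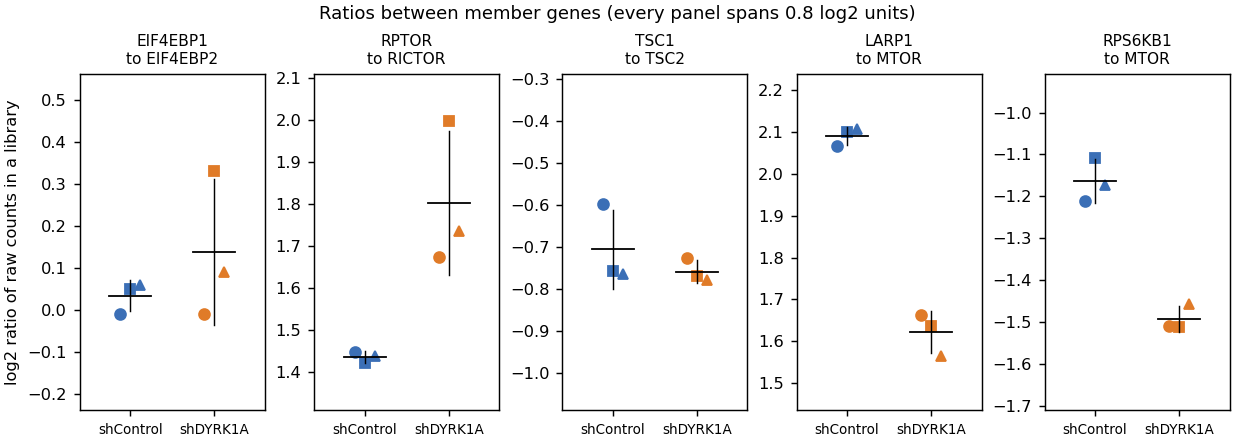
Log2 ratio of raw counts of 2 genes within each library for 5 pairs. Circles, squares and triangles are libraries 1A, 1B and 1C, blue for shControl and orange for shDYRK1A, lines give the mean and SD of 3 libraries, and every panel spans the same log2 range. The groups are apart for RPTOR to RICTOR, LARP1 to MTOR and RPS6KB1 to MTOR and overlap for EIF4EBP1 to EIF4EBP2 and TSC1 to TSC2.

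The genes whose patterns were closest to LARP1 and to MTOR were listed by Pearson correlation over the 6 libraries, after the median of each library over all tested genes had been subtracted. For LARP1 they included TBC1D14 (r = 0.999) and CHD7 (0.998), with log2 fold changes of -0.76 and -0.89. For MTOR they were TMX4 (r = 0.998), AP3B1 (0.996) and TRIM22 (0.993), with -0.22, -0.22 and -0.11. With 6 points in 2 groups, picked from 9697 genes, such values are a description only, and all points share the libraries.

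Promoter sequences were read because the study associated DYRK1A with promoters that hold the palindrome TCTCGCGAGA. The study also found DYRK1A at a few ribosomal protein gene promoters that lack it. In its data, ribosomal protein genes fell about equally with or without DYRK1A at the promoter. Over all genes, it found those that fell enriched for genes with DYRK1A at the promoter. Neither comparison split the genes by the palindrome itself. RefSeq windows (GRCh38.p14) from 250 bases before to 50 bases after each annotated start were searched on both strands for this palindrome and for its first 8 bases, TCTCGCGA, or their reverse complement, TCGCGAGA, which every full palindrome contains. For 9 of the 10 genes windows were searched (EIF4EBP1 is not reported), 13 windows in all, and none held either word. Over all 35116 windows, 0.424% held the palindrome and 1.15% the shorter word. Of 68 other pathway genes with a window, the palindrome occurred in RPS6 alone, 52 bases before the start, and the shorter word in RPS6, TBC1D7, NPRL3 and POLDIP3. The stretch of the RPS6 promoter that holds it (chr9:19380264-19380303, minus strand) is shown with the palindrome in capitals:
RPS6: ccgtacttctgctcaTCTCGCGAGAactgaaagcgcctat

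LARP1 recognises messages that begin with a C and a run of pyrimidines, so the 30 bases around annotated starts (15 on each side, the transcript beginning at base 16) were read as well. RPS6, EIF4B and EIF4A2 are shown as messages that begin with such a tract, and MTOR, LARP1, RHEB and RPTOR as genes of the group itself, for LARP1 at the start nearest to that in the files. Capitals mark every C followed by at least 4 further C or T:
RPS6 (chr9:19380222-19380251, minus): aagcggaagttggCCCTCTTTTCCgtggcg
EIF4B (chr12:53006441-53006470, plus): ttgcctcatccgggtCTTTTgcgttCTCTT
EIF4A2 (chr3:186783562-186783591, plus): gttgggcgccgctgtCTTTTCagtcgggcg
MTOR (chr1:11262537-11262566, minus): aaCCCTCCTTCCCTCgCTCCCggcttagag
LARP1 (chr5:154712828-154712857, plus): ctggagagCTCCCgggccagagccaggagg
RHEB (chr7:151519881-151519910, minus): gcggcggaagaaggtgggagggtcatgacg
RPTOR (chr17:80544823-80544852, plus): cgcggtgcattctgggtcctggcaatatgg

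In RPS6, EIF4B and EIF4A2 the capitals run across the first transcribed bases. In MTOR and LARP1 they lie beside the annotated start and not on it, and RHEB and RPTOR have none. A tract somewhere in this window occurred in 7 of 13 windows of the group, from EIF4EBP2, LARP1, MTOR and TSC2, beside 39.0% of all windows.

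The other genes of the pathway were taken from a list of 82 in 9 groups, of which 70 passed the filter. Of these, 43 fell and 1 rose at an adjusted p below 0.05 (63.4% and 1.08% of all tested genes), and 13 fell and 1 rose with a log2 change beyond 0.7 (14.3% and 0.278% of all). Of the 43, 14 lost that adjusted p in at least 1 of the 6 fits without a library. The median log2 fold change of the 70 was -0.42, which is 0.01 below that of all genes. On the TMM scale 19 fell and 23 rose (28.6% and 27.3% of all tested genes), 4 and 1 of them beyond 0.7 (1.93% and 1.25% of all). The pathway list as a whole was therefore close to the background on both scales, with single genes far from it.

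Growth factor and stress signalling towards mTOR held 4 of the 13 genes called lower, 4 of its 12 tested genes beside 14.3% of all. The group of TSC complex, RHEB paralog and upstream kinases had 8 of 12 tested genes lower at an adjusted p below 0.05, beside 63.4% of all. DDIT4, a stress-induced inhibitor of mTORC1, had 23004, 26436 and 21320 normalized counts in shControl and 9595, 8691 and 8980 in shDYRK1A, the largest fall of the list (log2 fold change -1.38, SE 0.13, edgeR adjusted p = 1.6e-22). The antisense gene DDIT4-AS1 lies opposite 41.16% of its exonic sequence, so the 2 cannot be told apart unless counting used the strand. IRS1, the adaptor between the insulin receptor and PI3-kinase, fell by 1.11 on the log2 scale (1307 ± 154 to 603 ± 62.4 normalized counts, SD, n = 3), and PIK3R1, a regulatory subunit of PI3-kinase, by 0.70 (1467 ± 165 to 901 ± 173). DDIT4, IRS1 and PIK3R1 fell on the TMM scale as well, with log2 fold changes of -0.97, -0.71 and -0.30. The kinases AKT1 (-0.44, adjusted p = 0.00267) and AKT2 (-0.16, adjusted p = 0.301) were nearer to the median gene, and TBC1D7, the third subunit of the TSC complex, was the highest of the group at -0.14 (adjusted p = 0.419).

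Among the other subunits of the mTOR complexes, 3 of 5 tested genes fell, beside 63.4% of all, and none was beyond 0.7. TELO2, an assembly factor, was lowest (-0.59, edgeR adjusted p = 0.000276), and MLST8, the subunit common to both complexes, was highest (-0.16, adjusted p = 0.300). DEPTOR, PRR5 and PRR5L were under the filter, at 3.46, 1.22 and 6.56 normalized CPM.

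The lysosomal branch carries amino acid signals to mTORC1. In the Rag GTPases and Ragulator the median was -0.20, 0.20 above all genes, with 5 of 11 lower on the spike-in scale (63.4% of all tested genes) and 6 of 11 higher on the TMM scale (27.3% of all). LAMTOR4, a Ragulator subunit, was highest (0.06, adjusted p = 0.684, and -0.03 without shControl 1C), and C7orf43 lies opposite 18.39% of its exonic sequence. SLC38A9, the lysosomal arginine transporter that signals to the Rag GTPases, went the other way and fell by 0.85 (872 ± 71.9 to 483 ± 78.8 normalized counts, adjusted p = 1.16e-06). The GATOR and KICSTOR genes had a median of -0.27 with 5 of 11 lower on the spike-in scale and 5 of 11 higher on the TMM scale, beside the same shares of all genes, from SEC13 (-0.49, adjusted p = 0.000845) to KPTN (0.16, adjusted p = 0.379). Of the amino acid sensors only SESN2 and BMT2 were tested. SESN2, a leucine sensor, was at -0.40 (adjusted p = 0.0175), a call lost without shControl 1A (adjusted p = 0.0780), shControl 1B (0.125), shDYRK1A 1B (0.0821) or shDYRK1A 1C (0.0979). BMT2, a sensor of S-adenosylmethionine, had 625, 648 and 506 normalized counts in shControl and 301, 178 and 285 in shDYRK1A, a log2 fold change of -1.22 (SE 0.17, adjusted p = 3.84e-11).

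**Figure D4:**
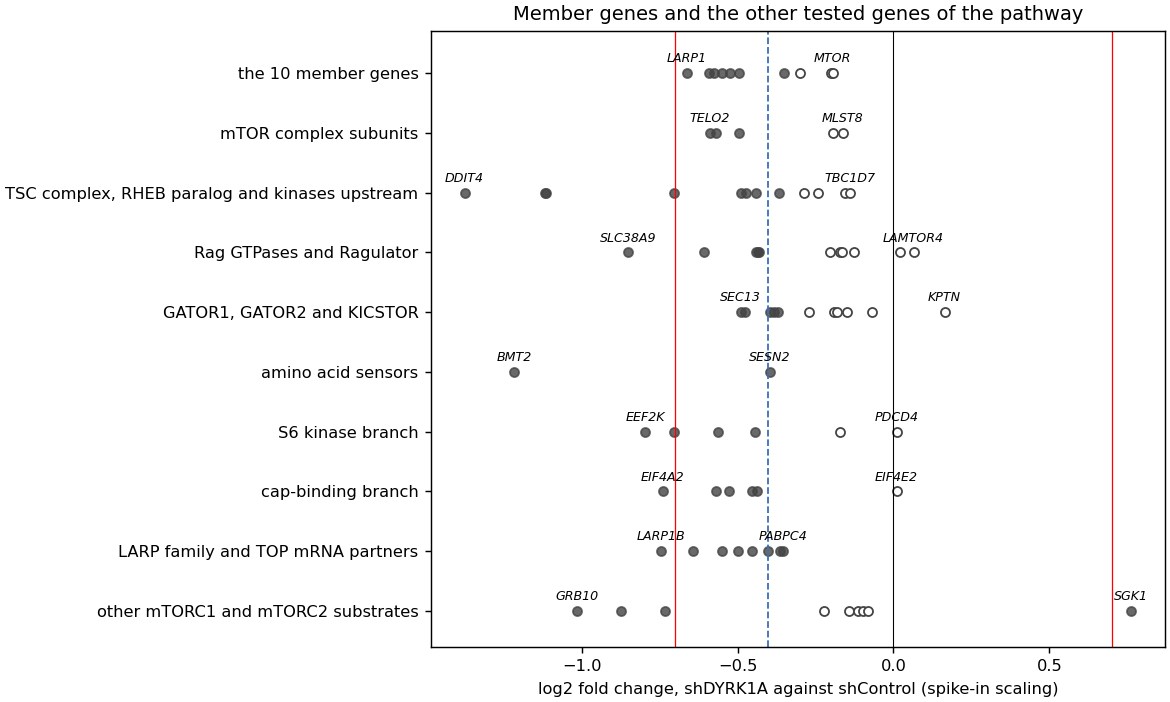
Log2 fold change on the spike-in scale of the 10 genes (top row) and of the other tested genes of the pathway by group. Filled points passed an adjusted p of 0.05 and open points did not, the dashed line is the median of all tested genes (-0.40), and the red lines mark the threshold of 0.7 in each direction. DDIT4 is farthest to the left at -1.38 and SGK1 farthest to the right at 0.76, and the names give the lowest and highest gene of each row.

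Downstream of the S6 kinase, 4 of 6 genes fell, a share near the 63.4% of all tested genes. EEF2K, the kinase that slows elongation and is inhibited through S6 kinase, fell by 0.80 (1956 ± 174 to 1125 ± 115 normalized counts, edgeR adjusted p = 1.01e-06), and EIF4B, a cofactor of the helicase that unwinds 5′ ends, fell by 0.70 (20398 ± 1351 to 12519 ± 1396, adjusted p = 8.7e-07). RPS6, the S6 protein itself and the gene with the palindrome shown above, fell by 0.56 (adjusted p = 4.72e-05), and on the TMM scale it was at -0.15 (adjusted p = 0.0607). PDCD4, an inhibitor of the helicase that S6 kinase targets for decay, was highest at 0.01 (adjusted p = 0.947), and BBIP1 lies opposite 28.08% of its exonic sequence.

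In the cap-binding branch 5 of 6 tested genes fell, beside 63.4% of all. EIF4A2, a helicase paralog, was lowest (15112 ± 1247 to 9052 ± 946 normalized counts, log2 fold change -0.74, edgeR adjusted p = 3.13e-07). EIF4E, the cap-binding protein that the products of EIF4EBP1 and EIF4EBP2 hold back, fell by 0.57 (adjusted p = 0.000279), close to EIF4EBP1 and EIF4EBP2 themselves. Its paralog EIF4E2 was at 0.01 (4154 ± 308 and 4183 ± 266, adjusted p = 0.951) and rose on the TMM scale (0.41, adjusted p = 5.72e-05), with 24.17% of its exonic sequence opposite other genes. EIF4A1 was under the filter at 6.85 normalized CPM, and 48.59% of its exonic sequence is shared on the same strand, chiefly with the readthrough gene SENP3-EIF4A1, where its reads may have been counted as ambiguous. EIF4EBP3, the third repressor of EIF4E, was under the filter at 0.12 normalized CPM with 73.37% of its exonic sequence within ANKHD1-EIF4EBP3.

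The relatives and partners of LARP1 fell together on the spike-in scale, 8 of 8 genes beside 63.4% of all tested genes, with a median of -0.48, 0.08 below that of all genes. LARP1B, the closest paralog, fell by 0.74 (607 ± 80.8 to 362 ± 41.0 normalized counts, edgeR adjusted p = 4.41e-05) and on the TMM scale by 0.34 (adjusted p = 0.00247). PABPC4, a poly(A)-binding protein, was highest at -0.35 (adjusted p = 0.0156), a call lost without shControl 1A (adjusted p = 0.101), shControl 1B (0.105), shDYRK1A 1B (0.0766) or shDYRK1A 1C (0.0964). LARP4B, LARP6 and LARP7 also lost theirs in at least 1 of the 6 fits without a library. By TMM, 3 of the 8 fell and none rose, beside 28.6% and 27.3% of all tested genes.

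Other substrates of the complexes had genes called in both directions. SGK1, a kinase activated by mTORC2, was the only gene of the pathway list to rise at an adjusted p below 0.05 on the spike-in scale. It had 705, 601 and 542 normalized counts in shControl and 1111, 939 and 1084 in shDYRK1A, groups that did not overlap, and a log2 fold change of 0.76 (SE 0.16, edgeR adjusted p = 8.09e-06). Without shControl 1C the value was 0.68, inside the 0.7 threshold, and on the TMM scale it was 1.17. GRB10, an adaptor that restrains insulin receptor signalling when phosphorylated by mTORC1, fell by 1.02 (2572 ± 121 to 1271 ± 123), PRKCA, a kinase stabilised by mTORC2, by 0.87 (3900 ± 309 to 2127 ± 371), and LPIN1, a phosphatidate phosphatase, by 0.73 (3181 ± 357 to 1916 ± 168). ULK1, ATG13, TFE3, TFEB and MAF1 act in autophagy, lysosome formation and transcription by RNA polymerase III. They did not pass the test on the spike-in scale (-0.22 to -0.08), and all but TFEB rose on the TMM scale. On that scale 5 of the 9 genes of this group rose and 3 fell, beside 27.3% and 28.6% of all tested genes.

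The 14 pathway genes with a log2 change beyond 0.7 kept an adjusted p below 0.05 in all 6 fits without a library and on the TMM scale. Of the 13 that fell, PIK3R1, EIF4B, EIF4A2, LARP1B and LPIN1 came inside the 0.7 threshold in at least 1 of these 6 fits, their highest values being -0.56, -0.63, -0.67, -0.66 and -0.66, and the count of genes beyond it dropped to 8 without shDYRK1A 1B.

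The messages that LARP1 binds were represented by 24 TOP transcripts other than ribosomal protein genes, of which 23 were tested and 3 (EIF4A2, EIF4B and PABPC1) are also in the pathway list. Their median log2 fold change was -0.59, 0.19 below that of all genes. LARP1 itself was at -0.66, and a link between its fall and theirs was not tested. Of the 23, 19 fell at an adjusted p below 0.05 (63.4% of all tested genes) and 9 fell beyond 0.7 (14.3% of all). Of these 9, EIF3E, EIF3H, EIF4A2, EIF4B, VIM, NPM1 and BTF3 came inside the 0.7 threshold in at least 1 of the 6 fits without a library, with highest values of -0.69 to -0.63. On the TMM scale 13 fell and 4 rose (28.6% and 27.3% of all), and 1 fell beyond 0.7 (1.93% of all). NAP1L1, a histone chaperone, was lowest, at 26095 ± 3267 and 11609 ± 830 normalized counts (log2 fold change -1.17, SE 0.13, edgeR adjusted p = 9.49e-17), and COX4I1, a subunit of cytochrome c oxidase, was highest (-0.14, adjusted p = 0.316, and 0.27 on the TMM scale).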

How the data were processed

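RNA-Seq was analysed for 6 T98G libraries, grouped by their titles. Per the study's methods, stranded paired-end reads were sequenced, and per the labels STAR and DESeq2 were used with builds hg38 and dm3 (versions and the counting annotation are not given in the sources used here). The authors deposited raw counts of 58174 human genes per library, a signal table of 23026 genes (counts divided by 1 constant per library, taken from fly reads), and a table of their own comparison (log2 fold changes, errors, a score, p-values), which was not used. Unmapped, multimapping, feature-less and ambiguous reads (8.44 to 15.65%, 2.26 to 2.49%, 3.66 to 4.81% and 3.42 to 3.59%) stayed out of library sizes.

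Constants were recovered from the 2 tables and used as normalization. Genes with a mean above 10 normalized CPM of the mean library size were tested with edgeR 4.0.16 (robust quasi-likelihood, R 4.3.3) and adjusted over 9697 genes (Benjamini-Hochberg). Calls needed a log2 fold change beyond 0.7 with an adjusted p below 0.05, and standard errors are the fold change over the square root of F. The 5 ratios went through exact two-sided permutation tests (scipy 1.17.1). TMM, median of ratios, DESeq2 1.42.0, other filters and thresholds, a replicate block and leaving out each library were alternatives. Steps were tested on simulated data. The genes and lists were chosen with earlier results of these data known. Named genes are the 10, DYRK1A, all pathway genes called and any that rose at an adjusted p below 0.05. Also named are the lowest and highest gene of each group and of the TOP list, and the 3 nearest patterns. Of the genes this rule names, 2 are not reported here. Other genes were named after their values were seen. Exon lengths come from GENCODE v29, whose coordinates equal those of the files for 95.81% of genes, TSC1, TSC2 and DYRK1A not among them. Coordinates are those of the files.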

Additional observations from a re-analysis of the deposited data

How the results depend on the processing

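None of the 10 genes was called lower in 11 of the other fits and thresholds tried, 1 was without shControl 1C and 2 without shDYRK1A 1A (0 to 2 over the fits that left out a library), and 5 were with a threshold of 0.5. Pathway genes called lower numbered 4 under TMM, 4 under median of ratios and 22 with a threshold of 0.5, and 8 to 15 when a library was left out. Those called higher numbered 0 to 1 when a library was left out. The median of the 10 genes relative to all genes was -0.14 with filterByExpr, -0.17 with no filter beyond 1 count, and -0.130 to -0.068 when a library was left out. Under TMM and median of ratios the sign turned for MTOR (0.21 and 0.21), RPTOR (0.20 and 0.21), TSC1 (0.047 and 0.050), TSC2 (0.10 and 0.10), MLST8 (0.24 and 0.25), TBC1D7 (0.27 and 0.27), SESN2 (0.0034 and 0.0065), PABPC4 (0.050 and 0.053) and COX4I1 (0.27 and 0.27). These scalings set the median gene to about 0. When a library was left out it turned for LAMTOR4 (-0.027 to 0.134), PDCD4 (-0.069 to 0.083) and EIF4E2 (-0.044 to 0.064), genes that did not pass the test. Over all tested genes the counts called lower and higher were 1386 and 27 on the spike-in scale and 187 and 121 under TMM.

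Same-lettered libraries of the 2 groups had deviations that correlated at 0.151, 0.0728 and 0.128, so the letters were not taken to pair them, although every library correlated best with its own letter. With the letter as a replicate block, 0 of the 10 genes were called, 7 had an adjusted p below 0.05, and 13 pathway genes were called lower and 1 higher, the same counts as without it. The number of libraries limits precision more than depth, since the 10 genes had between 918 and 18153 raw counts in each library.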
